A study of Mus musculus with 8 samples.

Results

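Open chromatin of mouse embryonic stem cells that lack 3 linker histones was compared with that of wild-type cells. It was measured by ATAC-seq, which marks accessible DNA by letting a transposase cut it and add adapters. The knockout cells carry the genotype H1.2-/-H1.3-/-H1.4-/-, and the wild-type cells are labelled H1-WT. Both were labelled as lines taken from an earlier publication, had grown for 4 passages in 2i/LIF, the medium that holds stem cells in the naive state, and the labels give no further treatment for them. Each reaction used 50000 cells and 12 PCR cycles. Each group had 2 replicates, which the authors pooled into 1 list of accessible regions, so no spread between replicates could be had, no test was made and no p-value is given. Whether the lines are single clones, share a parent or were kept apart for long is not given here, so a difference of genotype and a difference between the 2 lines cannot be told apart.

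All 58039 regions of the knockout list and all 55489 of the wild-type list were used, which together are 113528 of the 209105 regions of the whole series. A region was called shared when it overlapped a region of the other list by at least 1 bp, and otherwise "knockout-only" or "wild-type-only". The score of a region is the authors' own value for that region. It ranks regions within a list. It was not adjusted here for read depth, which is unknown. Raw scores of the knockout and wild-type lists, where given side by side, are therefore not on a known common scale. The part of depth in their differences was not tested. Coordinates are those of mm10.

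Linker histone H1 binds the nucleosome where DNA enters and leaves it and helps to pack nucleosome arrays. Mammals make several near-equivalent H1 proteins, of which H1.2, H1.3 and H1.4 are abundant in embryonic stem cells, and the remaining ones include H1.0, H1.1 and H1.5. Loss of H1 is known to shorten the spacing of nucleosomes. ATAC-seq regions mostly mark promoters and enhancers, which are already depleted of nucleosomes.

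The promoters of 6 genes illustrate the kinds of difference between the lists. Each is the RefSeq promoter window on GRCm38.p6, the build of mm10, from 250 bases before the gene's start to 50 after it. It is written 5′ to 3′ along the gene's strand, with every CpG in capitals, since CpG content differed widely between accessible and closed promoters. The promoters of Hoxa5 and Hoxa13, body-axis regulators, and of H1f3, which encodes the targeted H1.3, overlapped a region in wild-type cells only.
Hoxa5, chr6:52204538-52204837, minus strand: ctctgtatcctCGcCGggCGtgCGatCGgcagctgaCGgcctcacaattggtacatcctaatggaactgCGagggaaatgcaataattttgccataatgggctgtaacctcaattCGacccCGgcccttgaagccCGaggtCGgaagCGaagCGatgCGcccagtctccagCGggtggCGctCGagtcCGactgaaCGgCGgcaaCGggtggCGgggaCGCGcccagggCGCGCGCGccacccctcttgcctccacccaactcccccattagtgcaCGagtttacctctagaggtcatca
Hoxa13, chr6:52260831-52261130, minus strand: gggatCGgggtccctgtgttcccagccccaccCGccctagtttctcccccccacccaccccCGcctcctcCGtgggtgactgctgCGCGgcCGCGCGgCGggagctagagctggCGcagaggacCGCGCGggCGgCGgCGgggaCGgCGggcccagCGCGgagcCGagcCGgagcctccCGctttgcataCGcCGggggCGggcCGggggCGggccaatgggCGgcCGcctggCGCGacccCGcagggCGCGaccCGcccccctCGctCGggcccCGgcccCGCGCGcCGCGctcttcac
H1f3, chr13:23554782-23555081, plus strand: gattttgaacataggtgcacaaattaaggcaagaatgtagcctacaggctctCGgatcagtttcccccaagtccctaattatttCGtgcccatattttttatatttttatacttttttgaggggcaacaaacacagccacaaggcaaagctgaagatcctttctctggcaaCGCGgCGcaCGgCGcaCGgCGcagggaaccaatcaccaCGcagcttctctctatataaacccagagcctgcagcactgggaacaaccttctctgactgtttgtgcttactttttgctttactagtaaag
The promoters of Ddx4, a germ-cell RNA helicase, of Grb10, an imprinted adaptor protein, and of Tnfaip3, an inhibitor of NF-kappaB signalling, overlapped a region in knockout cells only.
Ddx4, chr13:112652261-112652560, minus strand: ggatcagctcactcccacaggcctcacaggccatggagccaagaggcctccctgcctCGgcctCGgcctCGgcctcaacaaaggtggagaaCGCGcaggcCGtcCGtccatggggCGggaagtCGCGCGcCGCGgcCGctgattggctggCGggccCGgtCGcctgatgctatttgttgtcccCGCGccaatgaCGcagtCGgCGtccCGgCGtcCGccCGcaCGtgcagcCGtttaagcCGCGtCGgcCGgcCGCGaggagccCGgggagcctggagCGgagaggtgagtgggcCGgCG
Grb10, chr11:12037371-12037670, minus strand: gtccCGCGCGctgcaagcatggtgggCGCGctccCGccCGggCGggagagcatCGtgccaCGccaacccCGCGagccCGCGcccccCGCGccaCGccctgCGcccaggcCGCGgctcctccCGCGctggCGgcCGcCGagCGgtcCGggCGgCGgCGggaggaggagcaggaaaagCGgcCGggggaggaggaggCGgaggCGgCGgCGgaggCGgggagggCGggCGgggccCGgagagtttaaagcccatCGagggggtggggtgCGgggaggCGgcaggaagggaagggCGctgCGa
Tnfaip3, chr10:19015361-19015660, minus strand: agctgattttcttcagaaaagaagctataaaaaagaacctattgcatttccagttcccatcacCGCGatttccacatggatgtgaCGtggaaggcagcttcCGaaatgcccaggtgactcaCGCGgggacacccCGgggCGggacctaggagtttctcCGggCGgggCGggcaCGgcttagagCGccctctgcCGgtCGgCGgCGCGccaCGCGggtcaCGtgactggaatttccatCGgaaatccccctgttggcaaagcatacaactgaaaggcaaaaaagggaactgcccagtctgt
Hoxa13 and Grb10 each hold 45 CpGs in these 300 bases, Ddx4 38, Hoxa5 29, Tnfaip3 22 and H1f3 10. GC content was 81% for Hoxa13, 80% for Grb10 and 45.7% for H1f3. All but H1f3 count as CpG-rich by the rule used below. The wild-type scores were 128 for Hoxa5, 144 for Hoxa13 and 103 for H1f3. The knockout scores were 174 for Ddx4, 91.6 for Grb10 and 278 for Tnfaip3. CpG-dense promoters thus stood on both sides of the comparison.

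The targeted genes lie in the histone cluster of chromosome 13. H1f2 (H1.2, 23738807 to 23739531) was covered by accessible regions over 725 bp, its whole length, in wild-type cells and over 0 bp in knockout cells. For H1f3 (H1.3, 23555032 to 23555807) the values were 242 bp and 0 bp. For H1f4 (H1.4, 23621777 to 23622558) they were 38 bp and 20 bp, so this gene's body does not separate the lists. At the gene ends, the locus of H1f3 scored 94.3 in knockout and 197 in wild-type cells, that of H1f2 322 and 534, and that of H1f4 141 and 137. Among the other linker histones, H1f5 (H1.5) scored 236 against 147 and H1f0 (H1.0) 212 against 155. The RefSeq promoter windows of H1f4 and H1f5 held no region in either list, so their scored loci lie outside these windows. H1f1 (H1.1) had a region in knockout cells only, with a score of 50.2 at the floor of the list.

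As a check of the cell type, 9 of 12 genes that define pluripotent stem cells had a region at a gene end in both lists, among them Sox2, Klf4, Nanog and Zfp42. Pou5f1, Esrrb and Lin28a had none at a gene end in either list. Of 12 fibroblast markers only Col1a2 had one, in both lists, while Col1a1, Col3a1, Dcn, Lum, Thy1 and 6 more had none. Of 8 blood and endothelial markers, Spi1 and Tek had a gene-end region in both lists and Pecam1 (55.7) in wild-type cells only.

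Unshared regions made up 31.4% of the knockout list and 28.8% of the wild-type list, 18204 and 15981 regions. They tended to be the weak and narrow regions of each list. With each list cut by score into 5 classes of equal size, 61.7% of knockout regions in the lowest class were unshared, against 47.5%, 30.7%, 13.8% and 3.15% in the classes above it. The wild-type list showed 55.9%, 42.1%, 28.4%, 14.5% and 3.11%. The median score was 93 for knockout-only and 176 for shared knockout regions, and 90.0 against 162 in the wild-type list. Knockout-only regions had a median width of 214 bp and wild-type-only regions 230 bp, while shared regions measured 291 and 301 bp. Most unshared regions were not displaced copies of a region in the other list. Their median distance to the nearest region of the other list was 11.1 kb for knockout-only and 10.9 kb for wild-type-only regions, and 9.01% and 10.3% lay within 500 bp of one.

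Unshared regions lay away from genes' ends more often than shared ones. A gene end is here the 1000 bp on each side of either annotated end of a protein-coding gene. Gene ends took 10.3% (exact 95% binomial interval 9.90 to 10.8) of knockout-only regions, 12.5% of wild-type-only regions and 26.5% of shared knockout regions. Gene bodies took 41.0% of knockout-only, 38.6% of wild-type-only and 33.3% of shared knockout regions. For genes whose strand is known, 6.29% of knockout-only and 8.14% of wild-type-only regions lay at a gene start, against 20.3% of shared knockout regions. Regions at the other end only were rare in each class, from 1.49% to 1.91%. Intervals here and below cover counting error only.

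The shared regions formed 38751 loci, of which 37202 were 1 region against 1. Their scores were ranked within each list over these loci, from 0 to 100 percentile points, and a rank change is knockout minus wild type, so that the mean change is 0 by construction. The 2 sets of ranks had a Pearson correlation of 0.680 across loci, which are not independent replicates, and the standard deviation of the change was 23.1 points. The rank rose by 20 points or more at 16.9% of loci and fell by as much at 16.7%. Gene-end loci moved least: 12.1% rose and 12.2% fell by 20 points. Inside genes 19.4% rose and 17.4% fell, with a median of 0.528 points (0.253 to 0.880). Outside genes 18.1% rose and 19% fell, with a median of -0.403 (-0.739 to -0.0735). The strongest loci hardly moved: of loci with a mean rank in the top 20 points of the scale 1.12% rose by 20 points, against 26.7% of those with a mean rank of 20 to 40. Loci in the middle of the scale have the most room to move in both directions. Gene-end regions tended to score high. For genes with one in both lists the median was 266 in knockout and 254 in wild-type cells, against 176 and 163 over all shared loci. The part of score in the smaller changes at gene ends was not tested. Without chromosomes 3, 6 and 8 the correlation was 0.690, with 16.6% up and 16.4% down.

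**Figure D1:**
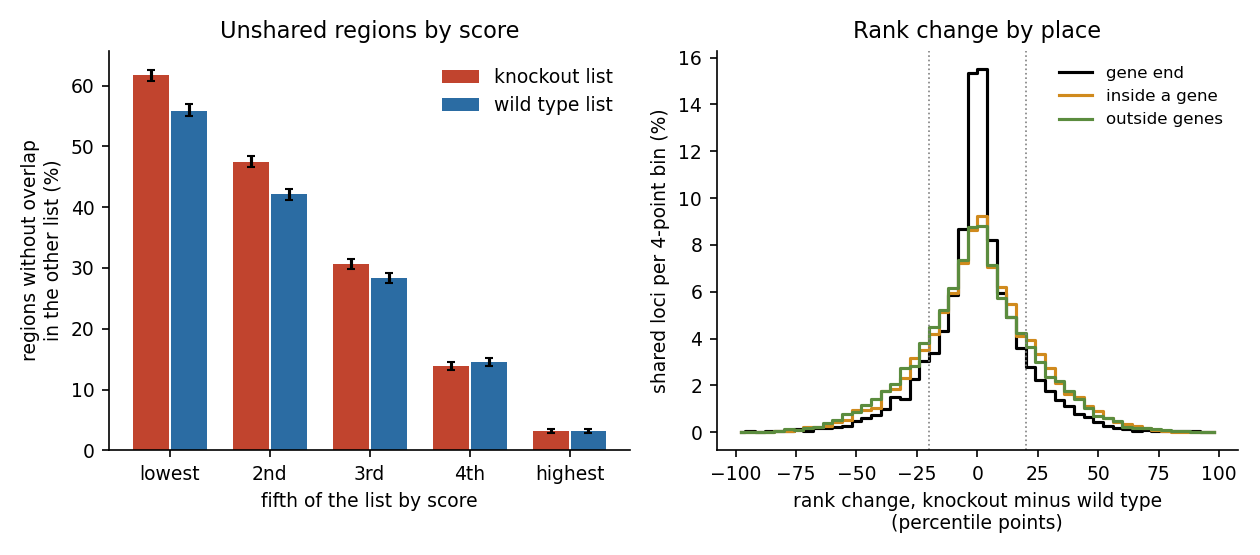
Left, the percent of regions without overlap in the other list (y axis) by score class, 5 per list (x axis), with exact 95% binomial intervals, which falls from 61.7% to 3.15% in the knockout list and from 55.9% to 3.11% in the wild-type list. Right, the distribution of rank change in percentile points (x axis) over shared loci at gene ends, inside genes and outside genes, in percent of loci per 4-point bin (y axis), narrowest at gene ends. Dotted lines mark 20 points in each direction.

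The balance between the lists depended on the chromosome, and the ranks of shared regions moved along with it. Chromosome 3 had 3.19 knockout-only regions for each wild-type-only region, and the median rank change of its shared loci was 6.63 points. The ratio was 0.499 on chromosome 6 and 0.386 on chromosome 8, with medians of -4.71 and -7.66 points. Chromosome Y had a ratio of 0.180 and a median of -7.46 over 59 shared loci. The other 16 autosomes lay between 0.959 and 1.61 in ratio and between -0.881 and 2.40 points in rank. Shared loci do not enter the ratio, so the count of unshared regions and the strength of shared ones are separate readings of the same lists. Where these imbalances come from was not tested. Counts over all genes and those of several lists below are therefore also given without chromosomes 3, 6 and 8.

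**Figure D2:**
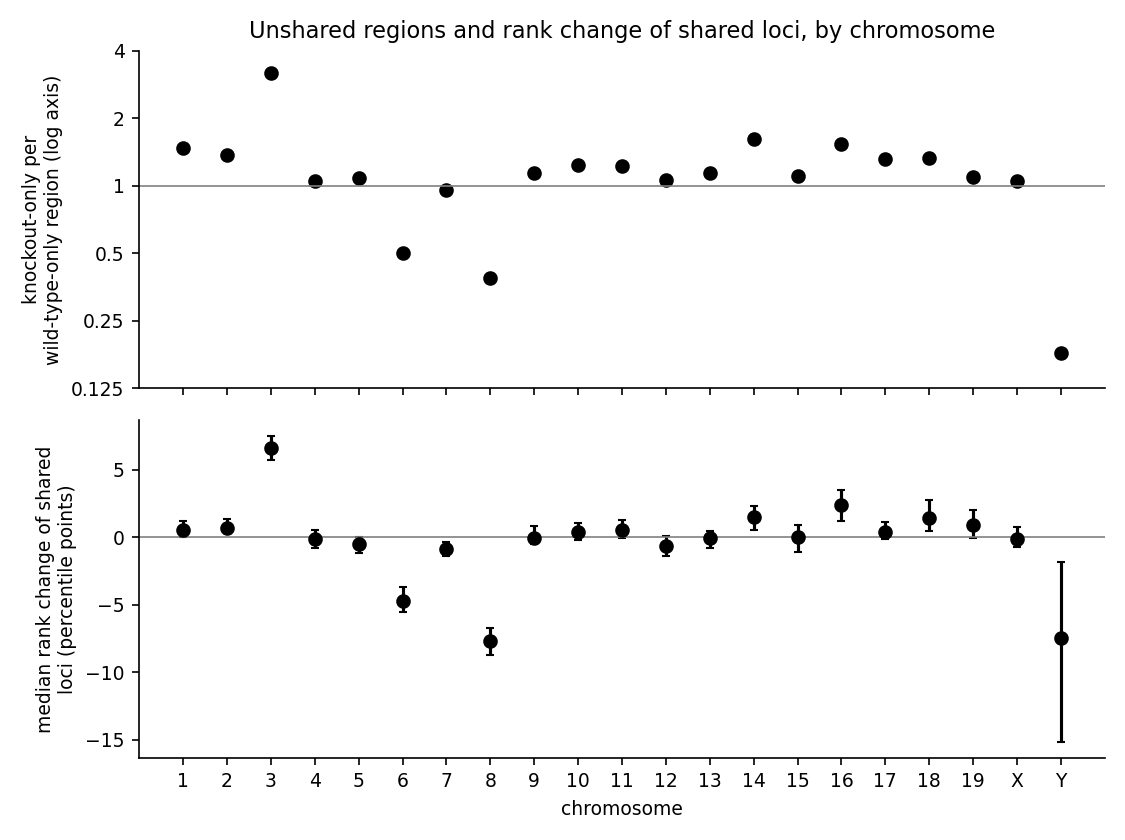
Upper, the number of knockout-only regions per wild-type-only region (log axis) for each chromosome. Lower, the median rank change of shared loci in percentile points with its 95% interval from order statistics. Chromosome 3 lies highest in both panels, and chromosomes 6, 8 and Y lie lowest.

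The same held over shorter stretches. Outside chromosomes 3, 6 and 8, 225 windows of 10 Mb had ratios from 0.467 to 6 and median rank changes from -8.27 to 19 points. Across these windows the log2 ratio and the median rank change had a Pearson correlation of 0.660 and a Spearman correlation of 0.573, as a description of windows that share libraries and neighbours. The window from 110 to 120 Mb of chromosome 1 stood highest in rank, at 19 points, with 145 knockout-only against 35 wild-type-only regions. The next window, to 130 Mb, had 156 against 26 and 9.56 points. On chromosome 2 the window from 160 to 170 Mb had 140 against 42 and 9.15 points, and on chromosome 14 that from 20 to 30 Mb had 66 against 32 and 10.7 points. The lowest rank change was on chromosome 12 between 60 and 70 Mb, at -8.27 points, with 35 against 48. The genes richest in knockout-only regions outside chromosomes 3, 6 and 8 lay mostly in the chromosome 1 window from 110 to 120 Mb. Cfap221, a protein of motile cilia, had 12 knockout-only and 0 wild-type-only regions, Clasp1, a microtubule-binding protein, 11 and 0, Cntnap5a 12 and 1, and Gli2, a transcription factor of Hedgehog signalling, 13 and 1. Arhgap26 on chromosome 18 had 13 and 2. The genes richest in wild-type-only regions were spread over several chromosomes. Auts2 had 6 knockout-only and 17 wild-type-only regions, Vps13d 2 and 13, Mast4 2 and 11, and Elmo1 3 and 11.

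A region at a gene end was found in knockout cells only at 946 genes and in wild-type cells only at 1007, while 10279 genes had one in both lists. Genes whose region is shared but crosses the window's edge in 1 list, 65 in all, count as neither. The background for all lists below is thus 8.96% of the 10563 genes without a wild-type region, which had a knockout-only one, and 8.89% of the 11324 genes with a wild-type region, which had it in wild-type cells only. Among 10227 genes with a shared gene-end locus, 10.9% rose and 10.7% fell by 20 rank points or more. Without chromosomes 3, 6 and 8 these shares were 8.82%, 8.44%, 10.9% and 10.4%. A gene with shared loci at several places of its ends is read at the locus of highest mean rank, which need not be its promoter, and the promoter's own values are given beside several genes. An unshared gene-end region need not lie at the promoter either. The RefSeq promoter window held no region in either list for Tet1, Trim71, Tcl1, Cdx2, Eomes, Tfap2a, Syna, Lhx1, Lhx9, Emx1 and Dlx2. Nor did it for Hoxa9, Ring1, Kmt5b, Jag2, Wnt6, Rspo4, Abcg3, Rbbp5, Rap1gap2 and Gm49894, among others. A peak that the authors' list holds in pieces gives each piece its score, which set the knockout score of Pttg1, Ccdc58, Fam162a, Grem1, Rps18 and Supt16 below. Gene lists are small and their members are neighbours in places, so their counts are given beside these shares as descriptions. The lists were not matched for CpG content. At promoter windows without a wild-type region the knockout-only share was 18.7% for CpG-rich, 11.1% for intermediate and 1.32% for CpG-poor promoters. These classes are defined below, and their part in the counts of the lists was not tested.

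Hox genes, the transcription factors that set identity along the body axis and are kept silent in stem cells by Polycomb complexes, differed toward wild-type-only regions. Of 14 Hox genes with a wild-type region at a gene end, 8 had it in wild-type cells only (57.1%), and 0 of the 25 others had a knockout-only one. The difference was concentrated in the Hoxa cluster of chromosome 6 (52145367 to 52270880 with its margins), where Hoxa4, Hoxa5, Hoxa6, Hoxa9, Hoxa10 and Hoxa13 made up 6 of the 8. Hoxa5 and Hoxa6 share 1 region (128). Within these 126 kb the wild-type list held 16 regions covering 4446 bp and the knockout list 2 covering 381 bp. All 14 wild-type-only regions were of low to middling score, from 61.2 to 163, and 5 of them overlapped a region of the control list of the series' other pair, the cells with intact Ubc9. The 2 shared loci scored 191 in knockout against 258 in wild-type cells and 131 against 319, a median rank change of -34.2.

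The other Hox clusters did not show this. Hoxb held 2 knockout and 3 wild-type regions, Hoxc 6 and 7, and Hoxd 5 and 5. Hoxb9 (120) and Hoxd13 (72.9) were the remaining members with a wild-type-only region, so that outside chromosome 6 the count was 2 of 7 (28.6%). Hoxd8 rose by 33.9 points (280 in knockout, 139 in wild-type cells), and Hoxc10 fell by 27.5 points (106 against 158). On chromosome 6 as a whole 37.5% of wild-type regions were wild-type-only and the median rank change was -4.71 points, and the part of this imbalance in the Hoxa result was not tested.

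Among other developmental homeobox genes, more had a knockout-only than a wild-type-only region at a gene end. The other readings of this list did not go that way. Summed over its genes with 10 kb on each side, it had 35 knockout-only and 42 wild-type-only regions. Its median rank change over 22 genes was -6.25 points, with 3 rises and 4 falls of 20 points or more. Of 29 without a wild-type region 5 had a knockout-only one (17.2%), namely Msx2 (112), Lhx9 (104), En1 (63.3), Irx1 (54.9) and Irx5 (54.2). Emx1 (102) and Dlx2 (64.0) had a wild-type-only region, 2 of 25. The counts were 4 of 27 and 1 of 20 without chromosomes 3, 6 and 8. En1, a midbrain regulator, starts at 120602487 on chromosome 1, in the stretch rich in knockout-only regions. Gbx2 rose by 34.6 points (155 against 70.7) and Six2 fell by 32.1 (115 against 186).

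Neural genes had knockout-only regions at 7 of 17 members without a wild-type region (41.2%), and 5 of 15 without chromosomes 3, 6 and 8 (33.3%). Among them were Dlx5 (104), Nes (97.5), which encodes the filament protein of neural stem cells, Sox10 (72.8), the neighbours Zic1 and Zic4 (71.0, 1 region) and Gad1 (51.1). All 7 scored below the knockout list's median of 139. With a score of at least 100 asked of the list counted, 1 remained. Tubb3 (139) and Dlx2 (64.0) had wild-type-only regions, 2 of 17. Among shared loci Neurog2 rose by 44.2 points (206 in knockout, 86.4 in wild-type cells), and Olig3 fell by 49.2 (86.8 against 201) and Neurog1 by 35.1 (110 against 188). Neurog2 lies on chromosome 3, whereas Pou3f3 on chromosome 1 rose by 21.7 points (316 against 190). Of 15 shared loci of the list, 3 rose and 2 fell by 20 points or more. Without chromosomes 3, 6 and 8, 1 of 11 rose and 2 fell. Neural transcription factors thus moved in both directions.

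Imprinted genes, expressed from 1 parental copy, had knockout-only regions at 9 of 22 members without a wild-type one (40.9%), and 7 of 19 without chromosomes 3, 6 and 8 (36.8%). Kcnk9 (190), a potassium channel, Commd1 (157) and Grb10 (91.6) scored highest. The RefSeq promoter window of Commd1 held a stronger knockout region, of 233, whose locus is shared and had a rank change of 2.66. The others were Mest (78.7), Blcap (75.9), Peg3 and Usp29 (71.6, 1 region), Sgce (68.5) and Rasgrf1 (67.5). Wild-type-only regions stood at Igf2r (96.9), the receptor that clears IGF2, Htra3 (75.1) and Cdh15 (58.8), 3 of 24. Only Kcnk9 and Commd1 of the 9 scored at least 100. Jade1 rose by 39.7 points (308 against 136) and Magel2 by 38.7 (267 against 123), while Zrsr1 fell by 31.1 (129 against 206) and Nap1l5 by 25.8 (176 against 269). The list's median rank change over 21 members was 0.834, against 0.103 over all genes.

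Germline genes had knockout-only regions at 6 of 26 members without a wild-type one (23.1%), and wild-type-only ones at 0 of 11. Sohlh2 (214), a transcription factor of early germ cells on chromosome 3, and Ddx4 (174) led them. Tex11 (106), Dpep3 (69.8), Zp3 (66.1), a protein of the egg coat, and Stag3 (61.8), a meiotic cohesin subunit, followed. Without chromosomes 3, 6 and 8 the count was 4 of 20 (20%). Of the 11 shared loci none rose by 20 points, and Asz1 (93.5 against 177), Tuba3a (70.7 against 111) and Dmc1 (120 against 157) had changes of -39.3, -22.4 and -20.3 points. Asz1 and Tuba3a lie on chromosome 6. Without chromosomes 3, 6 and 8, 1 of 7 shared loci fell by 20 points or more and 0 rose.

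**Figure D3:**
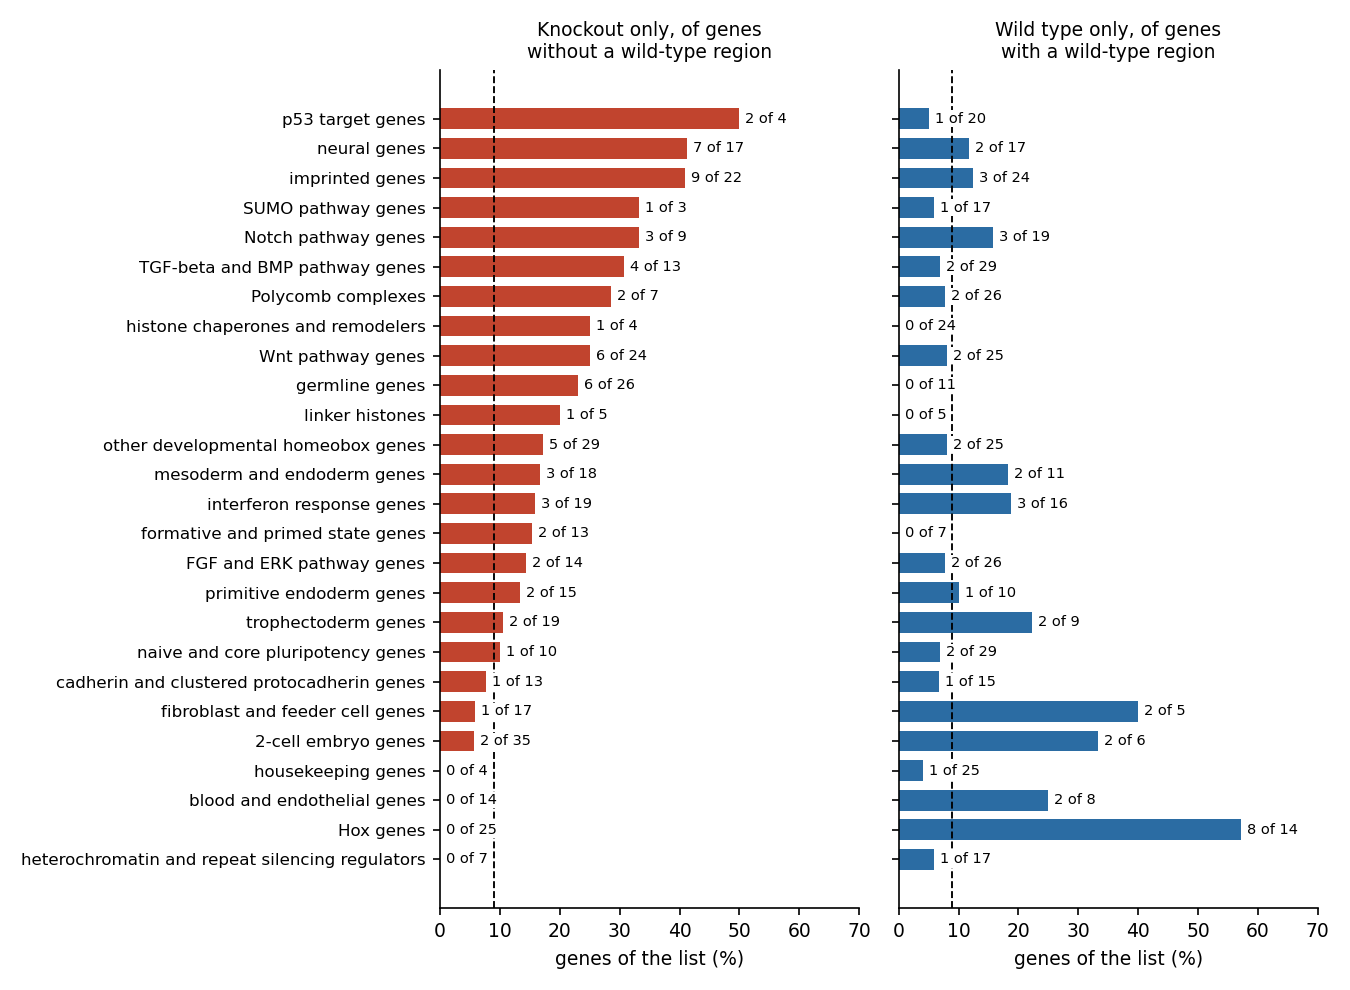
For each of the 26 gene lists, the percent of members with a gene-end region in knockout cells only among those without a wild-type one (left) and in wild-type cells only among those with one (right), with the counts. The dashed line is the share over all genes, 8.96% on the left and 8.89% on the right, and Hox genes lie farthest beyond it on the right at 57.1%.

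Among ligands, agonists and inhibitors of the Wnt pathway, Dkk3 (109), Wnt6 (90.1), Rspo4 (78.8) and Wnt2b (56.3) had knockout-only regions, as did the receptor Fzd3 (69.3) and Apc (67.7), a scaffold of the complex that degrades beta-catenin. These were 6 of 24 members without a wild-type region (25%). The gene of beta-catenin itself, Ctnnb1 (134), and that of the transcription factor Tcf7 (54.3) had wild-type-only ones, 2 of 25. Among 23 shared loci 7 fell and 2 rose by 20 points or more. Rspo2 fell by 51.3 points (75 in knockout, 191 in wild-type cells), Tcf7l2, which encodes the pathway's nuclear effector, by 46.1 (127 against 278), and the receptor Fzd2 by 39.1 (99.3 against 185). Wnt2 rose by 25.6 (487 against 225) and Rspo3 by 21.4 (118 against 65.6). The list's median was -3.98 points, and -13.6 over the 17 members outside chromosomes 3, 6 and 8, of which 6 fell and 1 rose.

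In the TGF-beta and BMP pathway the ligand genes Bmp8b (131) and Inhbb (65.4), the receptor gene Bmpr1a (124) and Fst (238), which encodes an inhibitor of activins, had knockout-only regions, 4 of 13. Inhbb starts at 119415463 on chromosome 1, in the same stretch as En1. The receptor gene Tgfbr2 (111) and the ligand gene Bmp2 (108) had wild-type-only ones, 2 of 29. Of 27 shared loci 5 rose and 7 fell. The receptor Acvr1b rose by 58.0 points (248 against 78.4), the BMP inhibitor Grem1 by 52.7 (357 against 119) and the inhibitory Smad6 by 43.2 (173 against 67.0). Bmp8a fell by 59.8 (80.6 against 235), the receptor Bmpr2 had one of -42.4 (65.4 against 153) and the target gene Id1 had a change of -38.4 (104 against 190). Ligands and receptors were each found on both sides. The promoter window of Grem1 itself held a wild-type-only region of 62.6. The knockout-only count was 4 of 12 without chromosomes 3, 6 and 8. In the Notch pathway, the receptor Notch1 (119), the coactivator Maml3 (92.9) and the ligand Jag2 (79.2) had knockout-only regions, 3 of 9. Rfng (103), Mfng (76.3), which like Rfng encodes a glycosyltransferase that modifies Notch, and Psen2 (70.5) had wild-type-only ones, 3 of 19. Leaving out chromosomes 3, 6 and 8 gave 2 of 8 and 3 of 17. The target Hes7 rose by 37.7 points (150 against 59.0). For FGF and ERK signalling the counts lay nearer the background, 2 of 14 and 2 of 26. Fgf22 (178) and Fgf15 (71.3) stood on the knockout side and Fgf10 (159) and Fgf7 (94.0) on the wild-type side. Fgf17 fell by 57.5 points (117 against 334).

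Pluripotency genes were mostly accessible in both lists, 27 of 39 at a gene end. Tet1 (88.2), an enzyme that oxidises methylcytosine, had a knockout-only region, and Trim71 (133) and Tcl1 (72.9) wild-type-only ones. Of 27 shared loci 5 rose and 4 fell by 20 points, with a median of -1.07. Sall4 rose by 48.9 points (198 in knockout, 71.6 in wild-type cells) and Tfcp2l1 by 46.9 (169 against 52.3), both transcription factors of the pluripotency network. Both lie in stretches where neighbours moved too: the window of Tfcp2l1 on chromosome 1 had a median change of 19 points and that of Sall4 on chromosome 2 one of 9.15. Zscan10 fell by 45.4 points (121 against 258) and Nanog, on chromosome 6, by 30.0 (96.2 against 153). The shared locus at the edge of the Zscan10 promoter window had a change of -2.23. Klf4 (292 against 255), Sox2 (196 against 151) and Zfp42 (594 against 817) differed by 3.66, 10.5 and -2.70 points.

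The formative, trophectoderm, primitive endoderm, mesoderm and endoderm, 2-cell, fibroblast and blood lists differed at 2 to 5 genes each, on small totals. Formative and primed state genes had knockout-only regions at 2 of 13, Pou3f1 (150) and Podxl (97.8, on chromosome 6), and Sfrp2 on chromosome 3 rose by 34.6 points. Zic2 (175 against 262) and Etv4 (141 against 184) fell by 24.7 and 20.3 points. Without chromosomes 3, 6 and 8, 2 of 6 shared loci of this list fell by 20 points or more and 0 rose. In the trophectoderm list Tfap2a (123) and Syna (54.1) stood on the knockout side, 2 of 19, and Cdx2 (79.0) and Eomes (75.8) on the wild-type side, 2 of 9. In the primitive endoderm list Apoa1 rose by 40.7 points (221 against 99.7) and Fgfr2 fell by 30.7 (138 against 221). Among mesoderm and endoderm genes Gsc (128), Lhx1 (99.9) and Tbx6 (58.0) had knockout-only regions, 3 of 18, and Foxc1 fell by 31.0 points at 1 locus (92.1 against 151) and rose by 7.02 at its promoter (97.1 against 76.1). Genes of the 2-cell embryo had 2 of 35 knockout-only and 2 of 6 wild-type-only. Of fibroblast and feeder cell genes 1 of 17 was knockout-only and 2 of 5 wild-type-only, and of blood and endothelial genes 0 of 14 and 2 of 8. Cadherins had 1 of 13 and 1 of 15.

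A gene-end region stood in both lists at 24 of 28 histone chaperones and remodelers, 16 of 24 heterochromatin and repeat silencing regulators and 24 of 33 Polycomb genes. Of 24 histone chaperones and remodelers with a wild-type region, all kept one, and of 23 shared loci none rose and 5 fell by 20 points or more, with a median of 1.71. These were Set (74.3 in knockout, 160 in wild-type cells), Supt16 (174 against 343), Arid1a (84.5 against 148), Atrx (118 against 168) and Hells (193 against 290), with changes of -41.8, -35.2, -33.0, -25.1 and -23.1 points. None of the 5 lies on chromosomes 3, 6 or 8. Among heterochromatin regulators Cbx3, which encodes HP1 gamma, had the largest fall of the list, by 83.2 points (58.7 against 345), at a locus it shares with its neighbour Hnrnpa2b1 on chromosome 6. Cbx1, for HP1 beta, rose by 23.6 (138 against 79.9), as did Morc3 by 25.0 (303 against 173). Kmt5b (63.5), an H4K20 methyltransferase, was wild-type-only. Of Polycomb genes Phc3 (153) and Pcgf6 (84.4) were knockout-only, 2 of 7, and Pcgf1 (104) and Ring1 (83.3) wild-type-only, 2 of 26. Leaving out chromosomes 3, 6 and 8 gave 1 of 6 and 1 of 21. Phf1 rose by 24.8 and Cbx7 by 22.9 points, and Epop fell by 25.5 and Scmh1 by 23.0.

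SUMO pathway genes, which the series targets in its other pair, had 4 rises and 2 falls among 16 shared loci, with a median of 4.33 points. The protease Senp5 rose by 43.7 points (305 against 126) in a window whose median was 6.35. The ligase Pias4 rose by 29.4 (293 against 156). Uba2, a subunit of the activating enzyme, fell by 23.6 at its locus of highest mean rank (146 against 203), while its promoter rose by 24.1 (116 against 56.8). Senp6 fell by 21.9 (174 against 244). Senp1 (176) was knockout-only and Pml (110) wild-type-only. Targets of p53 had knockout-only regions at 2 of 4, Phlda3 (155) and Cdkn1a (88.2), with Bbc3 (57.0) wild-type-only, 1 of 20. Zmat3 on chromosome 3 rose by 39.0 and Perp fell by 29.2 points. Interferon response genes had 3 of 19 knockout-only and 3 of 16 wild-type-only, with Zbp1 (123) and Usp18 (227) the highest on either side. Summed over these genes with 10 kb on each side, there were 18 knockout-only and 8 wild-type-only regions. Their median rank change was -3.54 points, and -7.52 without chromosomes 3, 6 and 8. Housekeeping genes had 0 of 4 and 1 of 25, a median of 5.29 points, 3 rises and 1 fall. Loci at the 2 ends of 1 gene differed in direction here. Rps18 had a change of 45.9 points at 1 locus (258 against 105) and of -14.4 at its promoter (88.6 against 110), and Polr2a had one of -26.3 (88.2 against 136) and of 31.8 at its promoter (139 against 63.4). Medians of the 26 lists ranged from -6.25, for other developmental homeobox genes, to 5.29. They ranged without chromosomes 3, 6 and 8 from -13.6, for Wnt genes, to 28.0, for 2 fibroblast genes. The formative list changed from 2.55 to -5.78 and the FGF list from -4.84 to 2.65.

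Across all genes outside chromosomes 3, 6 and 8, the deepest gene-end changes spanned most of the scale. Pnma5 on the X chromosome scored 390 in knockout and 65.1 in wild-type cells, a rise of 82.5 points. Sh3tc2 (319 against 55.1) and Trim36 (313 against 70.4), both on chromosome 18, rose by 79.5 and 72.0. Pttg1, which encodes securin, rose by 76.5 (299 against 56.4) at a piece of a peak whose other piece covers its promoter, where the change was 0.379 (299 against 283). Vstm2l rose by 72.4 (409 against 88.1) and Zfp626 by 71.0 (277 against 61.2). Gpat2 (259 against 58.2) rose by 69.1 and Kctd4 (252 against 59.5) by 67.2. Ccdc58 and Fam162a, at 1 locus (313 against 82.0), rose by 66.8 and Naa40 (228 against 53.3) by 64.2. Among the falls, the locus at the promoter of Gpat3, which is also a gene end of Abraxas1, scored 53.2 in knockout and 256 in wild-type cells, a change of -72.8. The promoter of Abraxas1 scored 223 against 177, a change of 8.94. Zfp52 (73.9 against 295), the imprinted Peg12 (80.3 against 281), Trim5 (77.6 against 267) and Rdx (72.4 against 255) had changes of -72.2, -67.8, -66.7 and -66.5. At the promoters the change was -15.7 for Zfp52 (129 against 155) and 6.76 for Peg12 (158 against 129). Olfr545, Zfp978, St8sia6 and the neighbours Cep170b and Gm46382 had changes of -65.1, -64.6, -63.8 and -63.4. On chromosomes 3, 6 and 8, Kcnd3 (327 against 101), Rad52 (212 against 63.0) and Tacr3 (213 against 64.7) rose most, by 58.4, 56.7 and 56.3. After Cbx3, M1ap (69.6 against 332) and 1810020O05Rik (80.3 against 364) had changes of -78.2 and -76.9. These are the extremes of 10227 genes and have no replicate check.

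Unshared gene ends included some with high scores. In knockout cells only, Dok5, an adaptor protein, scored 366, Tnfaip3 278, Plcd1 264, Abcg3 260 and Prkcq, a protein kinase C of T cells, 257. Rbbp5, a subunit of H3K4 methyltransferase complexes, and Tmem81 shared a region of 251. The 10 Mb window of Dok5 had 99 knockout-only against 40 wild-type-only regions. That of Rbbp5 and Tmem81, which also holds Lhx9 and Phlda3, had 170 against 67. The windows of Tnfaip3, Plcd1 and Prkcq had 68 against 51, 88 against 81 and 88 against 68, and that of Abcg3 63 against 83. In wild-type cells only, the predicted gene Gm49894 scored 390, Aim2, a sensor of cytosolic DNA, 334 (its RefSeq promoter was accessible in both lists, at 469 in knockout and 402 in wild-type cells), Prkch and LOC115488016 286 at 1 region, Lrch2 285, Ptpmt1 283, Rassf6 277 and Rap1gap2 263. The median score was 97.7 for genes with a knockout-only and 94.5 for those with a wild-type-only region, against 266 and 254 for genes with a region in both lists.

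CpG content set apart accessible from closed promoters far more than it set apart the lists. RefSeq gave a promoter window for 17492 of the 21887 genes (79.9%), none of them on chromosome 18. A promoter counts as CpG-rich with an observed to expected CpG ratio of at least 0.6 and a GC content of at least 55%, and as CpG-poor with a ratio under 0.4. CpG-rich were 69.3% of promoters accessible in both lists, 57.0% (52.9 to 61.1) of knockout-only, 58.6% (54.7 to 62.4) of wild-type-only and 15.9% of those in neither list. Read by class, knockout-only regions took 18.7% of the CpG-rich promoters that lacked a wild-type region, 11.1% of the intermediate and 1.32% (1.05 to 1.63) of the CpG-poor ones. Wild-type-only regions took 7.06% of CpG-rich, 7.85% of intermediate and 19.6% (16.6 to 23.0) of CpG-poor promoters with a wild-type region. The denominators of these knockout-only and wild-type-only shares are unlike. Of promoters with a knockout region, 329 of 5386 CpG-rich, 166 of 1948 intermediate and 82 of 558 CpG-poor ones were knockout-only. Read this way, CpG-poor promoters were unshared most often in both lists. The wild-type score moved with the class, with medians of 267, 227 and 167. With a wild-type score of at least 100 the wild-type-only shares were 3.63%, 3.60% and 11.7% (8.93 to 14.9). Under 100 they were 34.4%, 32.6% and 48.9% (40.0 to 57.7), so CpG-poor promoters had the highest share in both score ranges. Their shared loci had a median rank change of -2.20 points (-3.30 to -0.385), with 11.3% up and 15.8% down by 20 points. CpG-rich promoters had a median of 0.248 (0.107 to 0.382). Without chromosomes 3, 6 and 8 the wild-type-only shares were 6.65%, 7.47% and 19.5%, and the median of CpG-poor promoters again -2.20.

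**Figure D4:**
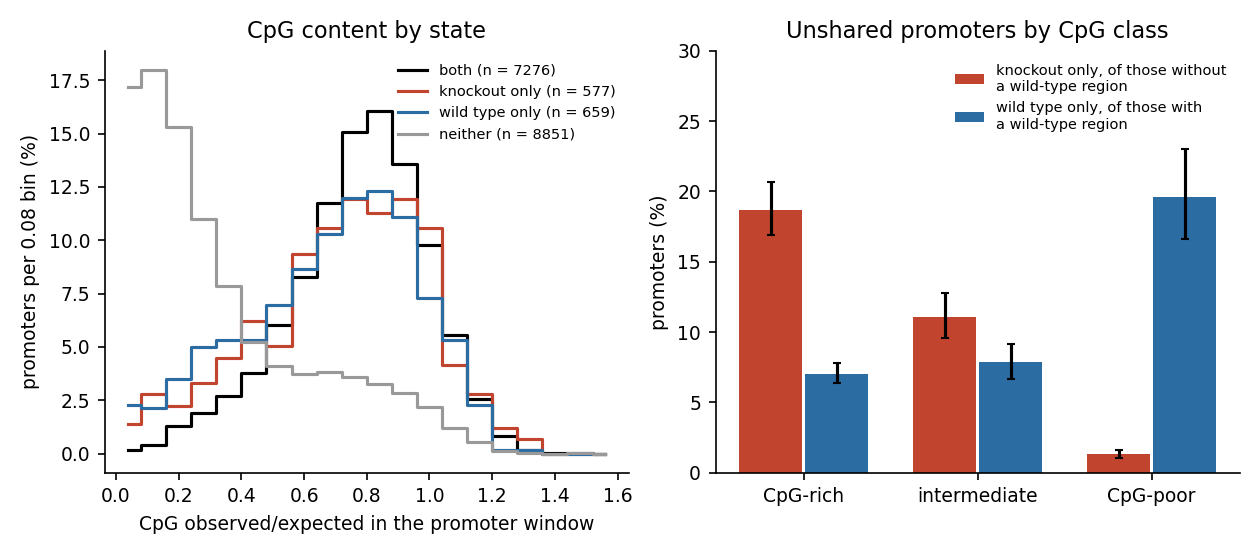
Left, the distribution of the observed to expected CpG ratio (x axis) over promoter windows by list, in percent per bin (y axis). Right, the percent of promoters that were knockout-only among those without a wild-type region and wild-type-only among those with one, by CpG class, with exact 95% binomial intervals. The denominators of the 2 shares are unlike. CpG-poor promoters have the lowest knockout-only share among those without a wild-type region, 1.32%. Their wild-type-only share among those with one is the highest, 19.6%. Of promoters with a knockout region, 82 of 558 CpG-poor and 329 of 5386 CpG-rich ones were knockout-only.

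Short motifs were compared in the same windows. Each was searched as exact letters on both strands of the 300 bases, and motifs may overlap one another. The GC box GGGCGG stood in 46.3% of all windows, in 23.7% of those in neither list, 71.2% of those accessible in both, 59.4% (55.3 to 63.5) of knockout-only and 63.1% (59.3 to 66.8) of wild-type-only ones. The CCAAT box, searched as CCAAT, stood in 39.2% of all and, in the same order, 35.1%, 45.8%, 33.8% (29.9 to 37.8) and 28.4% (25.0 to 32.0). The ETS core CCGGAA stood in 19% of all, then 7.49%, 32.5%, 23.2% (19.8 to 26.9) and 23.5% (20.3 to 26.9). The E-box CACGTG stood in 7.91% of all, then 5.31%, 10.7%, 12.3% (9.74 to 15.3) and 8.50% (6.48 to 10.9). TATAAA stood in 13.3% of all, then 20.4%, 5.72%, 7.11% and 8.19%. Accessible promoters thus held the GC box, ETS core and E-box more often than closed ones and TATAAA less often, while CCAAT was less frequent in wild-type-only than in closed promoters. The GC box, ETS core and E-box each contain a CpG. CpG-rich were 69.3% of promoters accessible in both lists and 15.9% of those in neither. The motif counts were not matched for CpG content, and its part in these contrasts was not tested. Intervals of knockout-only and wild-type-only promoters overlapped for each of these 5, and for the octamer ATGCAAAT (1.91%, 0.955 to 3.39, against 0.759%, 0.247 to 1.76) and the cyclic AMP element TGACGTCA (5.20%, 3.54 to 7.34, against 3.19%, 1.98 to 4.83).

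Unshared regions and the strength of their shared neighbours were weakly related. Shared loci with a knockout-only but no wild-type-only region within 20 kb had a median rank change of 1.35 points (0.952 to 1.71), and those with the opposite -1.29 (-1.76 to -0.946). Without chromosomes 3, 6 and 8 the medians were 0.513 (0.190 to 0.971) and -0.494 (-0.910 to -0.111). Within 5 kb they were -0.0981 and -0.369, and without those chromosomes -0.699 (-1.35 to -0.130) and 0.277 (-0.242 to 0.897), so the relation did not hold at the closest range. Neighbouring shared loci under 2 kb apart had a correlation of rank change of 0.114, and those 2 to 1000 kb apart between 0.0612 and 0.0885, or 0.0931 and 0.0307 to 0.0589 without chromosomes 3, 6 and 8, as descriptions of pairs that share libraries. Widths moved with rank: 53% of shared loci were narrower in knockout cells, and the log2 width ratio had a correlation of 0.394 with rank change.

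The lists of the series' other pair, from v6.5 cells, give a reading of the same loci in another line. The control list of that pair overlapped 80.7% of the shared regions, counted in either H1 list. It overlapped 40.3% (39.5 to 41.0) of wild-type-only and 29.6% (29.0 to 30.3) of knockout-only regions. In the upper 2 of the 5 score classes the shares were 63.0% (60.8 to 65.1) and 41.8% (39.6 to 44.0). Without chromosomes 3, 6 and 8 they were 41.1% and 29.9% overall. The other list of that pair is from cells depleted of Ubc9 with 72 hours of doxycycline (TET-OFF), and the labels give none for the control. This depleted list overlapped fewer of the shared regions, 59.9% in the knockout and 59.7% in the wild-type list. It overlapped 22.2% (21.6 to 22.9) of wild-type-only and 22.4% (21.8 to 23.0) of knockout-only regions. So over all regions the gap seen with the control list was not seen with the depleted list. In the upper 2 score classes it overlapped 34.8% (32.7 to 37.0) and 31.1% (29.0 to 33.2).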

How the data were processed

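The authors worked on build mm10 with MACS 1.4.2-1, Picard, Bowtie2 and CASAVA 1.8.2, per the submitters' processing notes. The sources used here do not give tool settings, read shifting for the transposase or how replicates were combined. Both replicates went into each deposited list, per the labels. The authors deposited a position and a score for each region. The lowest score is 50, and it was taken to be MACS's own, -10 times the log10 of p. In the knockout list 1436 peak names, and in the wild-type list 1154, belong to several regions with 1 score. Read depth is unknown.

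Overlaps, loci, ranks and exact (Clopper-Pearson) 95% intervals were computed in Python 3.11.15 with numpy 2.4.6, pandas 2.3.3 and scipy 1.17.1. A locus joins all overlapping regions of both lists and takes the highest score per list. Each gene was read at its locus of highest mean rank. Regions per gene were counted in the gene and 10 kb on each side. The overlap and rank steps were tested on simulated data. A RefSeq table for GRCm38.p6 gave 21887 protein-coding genes.

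The comparison and the 26 gene lists (798 genes matched, 7 entries not) were chosen with earlier results of these data known. Genes named are the targeted genes, the 10 largest rank changes per direction outside chromosomes 3, 6 and 8 and the 3 on them, up to 4 unshared members and 2 rank changes per direction of each list, the 8 top scores per direction, and the 5 genes with most unshared regions per direction. Other genes named were chosen after their values were seen. Some genes that these rules pick are left out of the text. No adjusted p-values were computed. Alternatives changed the overlap, score and width minimums, windows, chromosomes and ranking.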

Additional observations from a re-analysis of the deposited data

How the results depend on the processing

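No paired analysis was possible because each group has 1 list that pools its replicates, and leaving out a replicate was not possible for the same reason. Read depth, which sets how many weak regions a list holds, is unknown. Ratios of both kinds of unshared regions and genes, and the counts for single gene lists other than Hox, were added after the data were seen.

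The surplus of knockout-only regions, a ratio of 1.14, turned to 0.986 with equal numbers of top-scoring regions. The ratio for genes, 0.939, turned to 1.03 where the counted list was held to scores of 100 or more, 1.37 where both lists were, 1.03 without chromosomes 3, 6 and 8, and 1.01 with windows reaching 2500 bp out of and 500 bp into the gene. So neither list had more unshared genes under every setting. The counted list held to 100 left 7903 knockout-only and 6420 wild-type-only regions and 455 and 440 genes. Both lists held to it gave 10062 wild-type-only regions and a difference of -0.692 percentage points in the share of gene ends, against -2.12 in the report, and the wider windows gave -1.24. The direction on chromosomes 3, 6 and 8 held in each setting tried. With the counted list held to 100 their ratios were 3.95, 0.433 and 0.3, with both lists held to it 3.54 and 0.559 on chromosomes 3 and 6, and with equal numbers of regions 2.72, 0.428 and 0.333. Hox genes with a wild-type-only region numbered 2 without chromosomes 3, 6 and 8, 4 at gene starts and 7 to 11 otherwise. Ranks in the whole list gave 18.1% up and 15.2% down by 20 points, a threshold of 10 points 28.9% and 28.6%, and one of 30 points 9.34% and 9.22%. With the counted list held to 100, imprinted genes with a knockout-only region numbered 2 in place of 9, neural 1 in place of 7, germline 3 in place of 6 and Wnt genes 1 in place of 6. TGF-beta and BMP genes, 4 in the report, numbered 8 with both lists held to 100 and 1 with the wider windows.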
